A study of Rattus norvegicus with 12 samples.

Results

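Fos, Jun, Egr1, Atf3 and Myc are 5 genes of the immediate early and growth response, and their RNA was followed in the livers of male Wistar rats given the carcinogen N-nitrosodiethylamine (NDEA) with or without green tea. The 5 were chosen by rat gene ID (Fos ENSRNOG00000008015, Jun ENSRNOG00000026293, Egr1 ENSRNOG00000019422, Atf3 ENSRNOG00000003745 and Myc ENSRNOG00000004500), and all 5 were in the table of 34194 IDs. The table holds IDs and no symbols, so the names are those given with the rule. All 5 passed the limit on low values, a mean of at least 1 FPKM over the 12 libraries, as did 11854 IDs in all. FPKM values are fragment numbers divided by the length of the gene and by the mapped fragments of the library, so levels can be compared between genes.

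There were 4 groups of 12 rats at the start, and RNA from 3 livers per group was sequenced, 1 library per liver. The lesion counts of the study cover fewer than 12 rats in NDEA and in NDEA + FYT. Control rats received 0.9% saline by intraperitoneal injection and drank water. NDEA rats drank water and were injected by the same route with 25 mg/kg NDEA, 2 injections weekly in weeks 2 to 9. NDEA + CFT-1 and NDEA + FYT rats received the same NDEA injections and drank an infusion of CFT-1 tea, a variety rich in epigallocatechin gallate, or of the common tea FYT (Fuyun6) for 20 weeks. All livers were taken at week 20, so the last NDEA injection of every injected group lay weeks before sampling. Their age is not given in the sources used here, no tea group went without NDEA, and whether a library came from a nodule or the tissue around it is not stated either. The RNA is from whole liver pieces, so a change in the cells that make up the liver and a change of RNA per cell cannot be told apart.

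Immediate early genes are transcribed within minutes of a growth factor, cytokine or stress signal without needing new protein, and their messages are short lived. Fos and Jun proteins pair through a leucine zipper to form the transcription factor AP-1, Egr1 is a zinc finger transcription factor switched on through serum response elements in its promoter, and Atf3 is a stress-induced relative of the AP-1 proteins that can pair with Jun. Myc binds DNA with its partner Max and drives genes of growth and ribosome production. In rodent liver these genes are known for their early rise after partial hepatectomy and acute injury, and Jun and Myc for their part in liver tumour models.

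The serum response element is the best known control sequence of this class, and it is shown here for Egr1, the member with a promoter window in the RefSeq table used. The window is on the plus strand of assembly GRCr8 at chr18:26736828-26737127, a later build than the Rnor_6.0 of the deposited values. It runs from 250 bases before to 50 bases after the annotated start. Capitals mark the 2 CArG boxes found, the core of the serum response element (CC, then 6 of A or T, then GG).

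Egr1: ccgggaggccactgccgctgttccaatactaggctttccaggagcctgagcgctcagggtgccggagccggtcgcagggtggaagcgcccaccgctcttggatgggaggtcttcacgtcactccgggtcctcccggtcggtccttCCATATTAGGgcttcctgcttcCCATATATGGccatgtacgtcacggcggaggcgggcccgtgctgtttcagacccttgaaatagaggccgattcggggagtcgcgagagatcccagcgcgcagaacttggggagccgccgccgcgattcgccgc

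The first box is CCATATTAGG, 105 to 96 bases before the start. The second is CCATATATGG, 83 to 74 bases before it. A CArG box on either strand was in 1.638% of the 33465 RefSeq windows of this length, and 2 or more were in 7 windows. The letters TGACGTCA (1.829% of windows), TGANTCA (7.33%), GCGGGGGCG (2.734%), CACGTG (6.419%) and TATAAA (14.22%), searched on both strands, were not in the Egr1 window. A match is a description of the letters, and occupancy of these boxes was not measured.

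The deposited FPKM rise in steps of 1 fragment, which let the whole number of reads behind each value be recovered. Library totals recovered this way were smallest in NDEA replicate 1, with 15495482 fragments, and largest in the first NDEA + CFT-1 replicate, with 25718747 fragments. The members rested on between 13 reads (Fos in NDEA + CFT-1 replicate 1) and 4859 reads (Jun in NDEA replicate 3). NDEA replicate 1 stood apart as a library. It had the highest value of the 12 libraries for 49.4% of the 11854 tested IDs, and its median-of-ratios size factor, the typical level of its genes against the other libraries, was 1.40, where the others lay between 0.771 and 1.12. Values after division by these size factors, called scaling here, and without that library are given beside the comparisons with NDEA.

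Jun, the major partner in AP-1, was the most abundant member in all 12 libraries and one of the more abundant messages of the liver. Its level ranked between the 76.4th and the 90.8th percentile of the tested IDs. Jun was at 63.6, 49.3 and 28.3 FPKM in Control replicates 1, 2 and 3. It was at 72.8, 26.8 and 70.2 FPKM in the NDEA replicates. It was at 22.7, 23.5 and 27.2 FPKM in NDEA + CFT-1 and at 32.9, 39.8 and 33.5 FPKM in NDEA + FYT. The group means were 47.1 ± 17.8, 56.6 ± 25.8, 24.4 ± 2.42 and 35.4 ± 3.82 FPKM (SD, n = 3) in that order. All 3 CFT-1 libraries lay below all Control libraries, as for 2.32% of all IDs and, after scaling, 4.12%. They also lay below all FYT libraries, as for 18.9% of all IDs and, after scaling, 8.30%. NDEA replicate 2 lay within the CFT-1 range while the other 2 NDEA libraries were the highest of the 12. For Jun the 2 tea groups were the tight ones, with a highest value 1.20 times the lowest under CFT-1 and 1.21 times under FYT. It was 2.25 times in Control and 2.71 times in NDEA. The same ranges were not computed for all IDs, so a tightness particular to Jun was not tested.

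Fos, the AP-1 partner of Jun, was a low message with the widest range of the 5. It was at 3.51, 4.64 and 3.28 FPKM in Control. It was at 27.8, 0.823 and 2.36 FPKM in NDEA. It was at 0.318, 1.46 and 4.56 FPKM in NDEA + CFT-1 and at 1.32, 3.69 and 1.17 FPKM in NDEA + FYT. The Control livers were close together, within 1.41-fold, whereas 2 livers of the NDEA group differed by 33.8-fold. The highest NDEA library was 5.98 times the next highest of all 12, and the mean of the NDEA group, 10.3 FPKM, became 1.59 FPKM without it, below each Control library. The lowest value, 0.318 FPKM, had an exact 95% Poisson interval of 0.169 to 0.544 FPKM and the highest one of 25.7 to 29.9 FPKM. These intervals cover counting error only.

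Egr1 followed another order. It was at 11.9, 31.5 and 3.62 FPKM in Control. It was at 35.2, 4.16 and 6.24 FPKM in NDEA. It was at 3.83, 2.64 and 6.37 FPKM in NDEA + CFT-1 and at 8.43, 23.1 and 11.8 FPKM in NDEA + FYT. All 3 CFT-1 livers lay below all 3 FYT livers, as for 18.9% of all IDs and, after scaling, 8.30%. The Control and NDEA groups each spanned a wider range than the CFT-1 group. The highest Egr1 value was 8.70 times the lowest among the Control livers and 8.47 times among the NDEA livers. Livers not given NDEA spread as widely for this gene as those given NDEA alone.

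Atf3, the stress-induced member, was low in most libraries, with its highest value, in NDEA replicate 1, at the 54.0th percentile of the tested IDs. It was at 1.87, 3.43 and 1.97 FPKM in Control. It was at 10.9, 1.04 and 4.96 FPKM in NDEA. It was at 1.57, 3.44 and 1.54 FPKM in NDEA + CFT-1 and at 1.25, 2.43 and 3.03 FPKM in NDEA + FYT. The highest 2 of the 12 values and the lowest were all in the NDEA group, and the other 3 groups overlapped one another. Atf3 was the lowest member in 7 libraries and Fos in the other 5.

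Myc showed a pattern of high and low livers. It was at 2.99, 18.6 and 4.58 FPKM in Control. It was at 22.5, 4.45 and 21.2 FPKM in NDEA. It was at 5.42, 5.25 and 7.22 FPKM in NDEA + CFT-1 and at 6.61, 19.4 and 21.3 FPKM in NDEA + FYT. Of the 12 livers, 5 were between 18.6 and 22.5 FPKM and the other 7 between 2.99 and 7.22 FPKM, with none between. High livers occurred in Control, NDEA and NDEA + FYT, and none of the 3 CFT-1 livers was high. These ranges were read from the same 12 values, and how the high livers fell among the groups was not tested. Myc could be high where Fos was low: NDEA + FYT replicate 3 had 18.2 times as much Myc as Fos, and NDEA replicate 1 had 0.810 times as much.

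**Figure D1:**
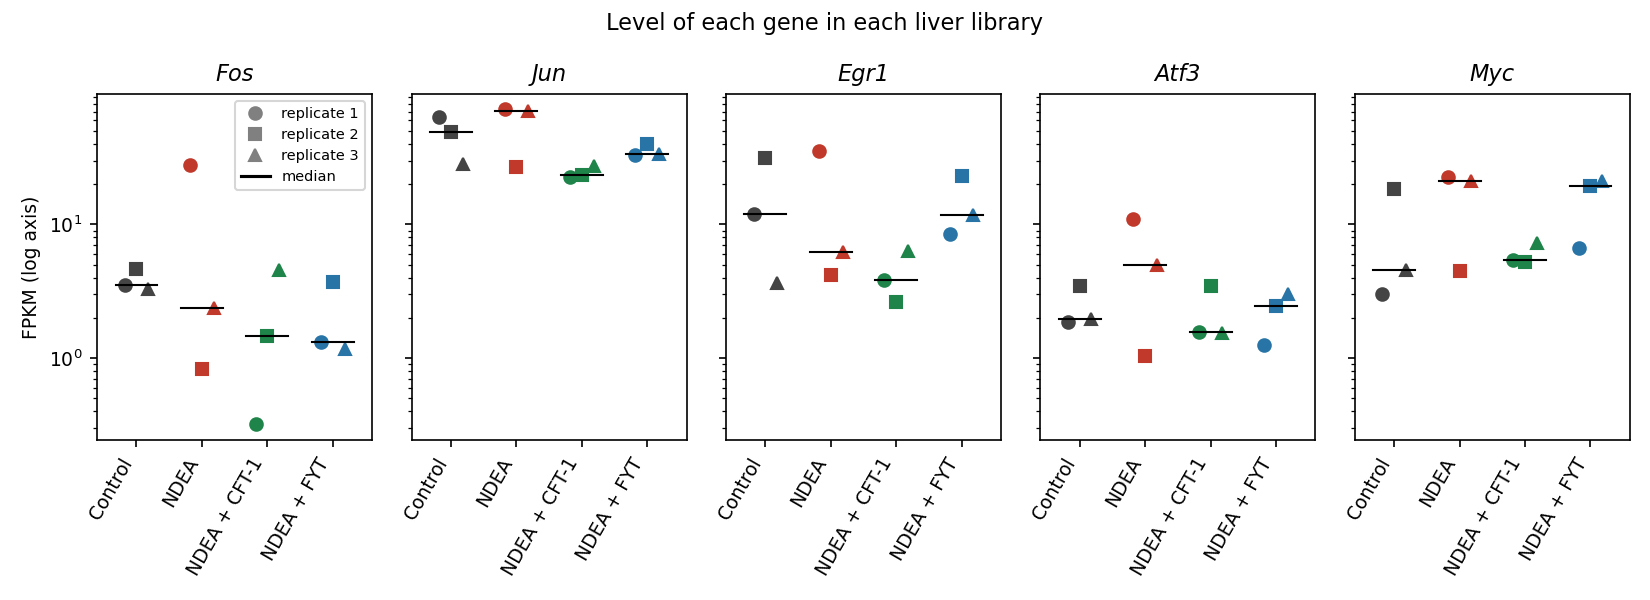
FPKM of the 5 genes in each of the 12 libraries (vertical log axis, 1 panel per gene), by group, with replicate number as the symbol and the group median as a line. NDEA replicate 1 is the highest point in every panel, as for 49.4% of all IDs. The 3 NDEA + CFT-1 points of Jun, 22.7 to 27.2 FPKM, lie together below those of Control and of NDEA + FYT. Of all IDs, 2.32% were lower in every CFT-1 than in every Control liver, and 18.9% than in every FYT liver.

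The order of the group means of FPKM differed from gene to gene. For Jun it was NDEA, Control, NDEA + FYT, NDEA + CFT-1 from high to low, and after scaling Control stood above NDEA. For Egr1 it was Control, NDEA, NDEA + FYT, NDEA + CFT-1, and after scaling NDEA + FYT stood above NDEA. For Myc it was NDEA, NDEA + FYT, Control, NDEA + CFT-1, and after scaling NDEA + FYT came first. Fos was lowest in NDEA + FYT by these FPKM means, as deposited and after scaling. Atf3 was lowest in NDEA + CFT-1, and in NDEA + FYT after scaling. As deposited, the neighbours NDEA + FYT and NDEA + CFT-1 had no overlap for Jun and Egr1, where 18.9% of all IDs were lower in every CFT-1 than in every FYT liver, and all other neighbouring pairs of groups overlapped for each gene. The tests below use means of log2(FPKM + 1), whose order could differ. On that scale, as deposited, NDEA + FYT came first for Egr1 (3.83, with Control at 3.64 and NDEA at 3.47). It also came first for Myc (3.92, with NDEA at 3.82). Fos was lowest there in NDEA + CFT-1 (1.39, with NDEA + FYT at 1.52).

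Whether NDEA livers differed from Control livers was asked first. None of the 5 genes was called at a Benjamini-Hochberg adjusted p under 0.05 by limma, and neither was any of the 11854 IDs (0%). At an unadjusted p under 0.05, 0 of the 5 and 8.70% of all IDs passed. On the log2(FPKM + 1) scale, which understates changes of low genes, the largest difference was that of Myc, −0.90 in Control against NDEA (SE 0.66, 95% interval −2.35 to 0.54, limma adjusted p = 0.564). Atf3 stood at −0.65 (−1.78 to 0.48), Fos at −0.23 (−2.05 to 1.59), Jun at −0.21 (−0.995 to 0.58) and Egr1 at 0.17 (−1.50 to 1.84). Control was lower for 4 of 5, as for 76.2% of all IDs. After scaling, 45.0% of all IDs and 2 of the 5, Atf3 (−0.41) and Myc (−0.64), were lower in Control. Egr1 then stood at 0.43, Jun at 0.08 and Fos at 0.03. Without NDEA replicate 1, Fos turned from −0.23 to 0.95 and Jun from −0.21 to 0.04, Egr1 went from 0.17 to 1.03, Myc stood at −0.54 and Atf3 at −0.06. Without NDEA replicate 2, the unadjusted limit was passed by 3 of the 5, where 19.3% of all IDs passed it. By limma these were Atf3 (−1.33, unadjusted p = 0.00524, adjusted p = 0.206), Myc (−1.59, unadjusted p = 0.0239, adjusted p = 0.221) and Jun (−0.67, unadjusted p = 0.0351, adjusted p = 0.240). Myc also passed the unadjusted limit without Control replicate 2 (−1.59, limma unadjusted p = 0.0259, adjusted p = 0.383). There 12.7% of all IDs passed it, and without Control replicate 1 Myc stood at −0.44. The intervals of Fos and Myc reach past a 4-fold lower value of FPKM + 1 in Control, and that of Jun does not. With a pseudocount of 0.1 in place of 1, that of Atf3 also reached past 4-fold (−2.21 to 0.78).

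Livers of the CFT-1 group were compared with NDEA alone next. All 5 members had a lower mean in NDEA + CFT-1, by 0.77 (Atf3) to 1.13 (Egr1) on the log2 scale, as did 69.8% of all IDs. After scaling all 5 were still lower and 44.1% of all IDs were. Fos then stood at −0.87, Egr1 at −0.89, Myc at −0.79 and Atf3 at −0.54. None was called by limma, and 0% of IDs were. Jun was the 1 member with an unadjusted p under 0.05, which 12.6% of all IDs also reached. Jun missed the adjusted limit at −1.06 (SE 0.36, 95% interval −1.84 to −0.27, limma unadjusted p = 0.0130, adjusted p = 0.329). Scaling gave −0.79 (unadjusted p = 0.0234, adjusted p = 0.288, where 15.1% of IDs passed the unadjusted limit), and without NDEA replicate 1 or 3 the unadjusted limma p of Jun was 0.0582 and 0.0579. Without NDEA replicate 2, the low library, Jun stood at −1.52 with a limma unadjusted p of 0.000207 and an adjusted p of 0.203. Atf3 (unadjusted p = 0.00294), Myc (unadjusted p = 0.0162) and Fos (unadjusted p = 0.0351) then also passed the unadjusted limma limit, as did 19.1% of all IDs. The other 4 had intervals that include 0: Fos −1.10 (−2.92 to 0.72), Egr1 −1.13 (−2.80 to 0.54), Atf3 −0.77 (−1.90 to 0.36) and Myc −1.04 (−2.48 to 0.41). Without NDEA replicate 1, Fos turned to 0.08, Jun stood at −0.81, Myc at −0.67, Egr1 at −0.27 and Atf3 at −0.18. The groups overlapped for all 5 members, where 14.1% of all IDs were lower in every CFT-1 liver, and NDEA replicate 2 was within or below the CFT-1 range for each of them.

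The common tea was compared with NDEA in the same way. Fos (−0.97), Atf3 (−0.74) and Jun (−0.54) had lower means of log2(FPKM + 1) in NDEA + FYT, as did 56.0% of all IDs. Egr1 (0.37) and Myc (0.09) had higher ones. In FPKM the means of both were lower in NDEA + FYT, 14.4 against 15.2 for Egr1 and 15.8 against 16.0 for Myc. The lowest adjusted p of the 5 in limma was 1.00 and the lowest unadjusted p 0.161, that of Jun, and 0% and 1.48% of all IDs passed the adjusted and the unadjusted limit. The intervals ran from −1.33 to 0.25 for Jun and from −2.79 to 0.85 for Fos. After scaling, Fos stood at −0.88, Atf3 at −0.67, Jun at −0.50, Egr1 at 0.41 and Myc at 0.14. Without NDEA replicate 1, Fos stood at 0.21, Jun at −0.30, Egr1 at 1.22, Myc at 0.46 and Atf3 at −0.15. Without NDEA replicate 2, Atf3 (−1.42, limma unadjusted p = 0.00340), Jun (−0.999, unadjusted p = 0.00423) and Fos (−1.78, unadjusted p = 0.0469) passed the unadjusted limit, where 4.78% of all IDs did, each with an adjusted p of 0.832. In that fit Egr1 turned to −0.18 and Myc to −0.59.

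**Figure D2:**
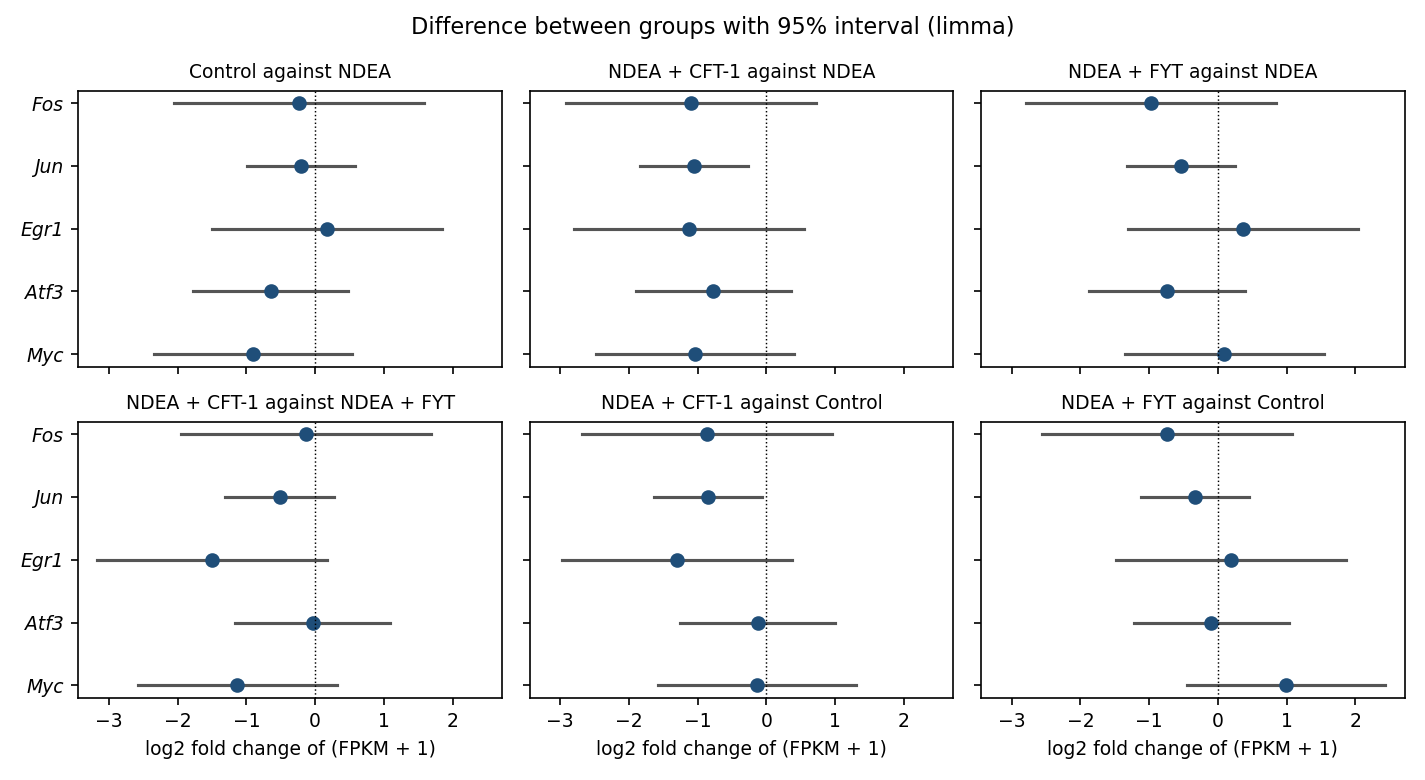
Log2 fold change of (FPKM + 1) of each gene (horizontal axis) with its 95% interval as a line, in 6 comparisons from 1 limma fit of all 12 libraries. The interval of Jun leaves out 0 for NDEA + CFT-1 against NDEA and against Control, and all other intervals include 0.

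The teas were then compared with each other. Egr1 and Jun were lower in every CFT-1 liver than in every FYT liver, 2 of the 5 members, where 18.9% of all IDs were. After scaling the same 2 remained without overlap, and the share of all IDs was 8.30%. Egr1 differed by −1.50 (SE 0.76, 95% interval −3.17 to 0.18, limma unadjusted p = 0.0749, adjusted p = 0.896). In FPKM its mean was 3.37 times as high under FYT, 14.4 ± 7.66 against 4.28 ± 1.90 (SD, n = 3). Jun differed by −0.52 (−1.30 to 0.27, limma adjusted p = 0.899), with a mean 1.45 times as high under FYT. Scaling moved Jun to −0.30 (limma unadjusted p = 0.348), with a mean 1.23 times as high under FYT. As deposited, Myc differed by −1.13 (−2.57 to 0.31), Fos by −0.13 (−1.95 to 1.69) and Atf3 by −0.03 (−1.16 to 1.10). None was called, and 0% of all IDs were. When the spread was taken from these 2 groups alone, 11.9% of all IDs had an unadjusted limma p under 0.05, and 3 of the 5 members did. The unadjusted p was 0.00663 for Egr1 and 0.00637 for Jun, with an adjusted p of 0.284 for each, and 0.0266 for Myc (95% interval −2.08 to −0.17, adjusted p = 0.361). In the common fit, Egr1 passed the unadjusted limma limit without NDEA replicate 1 (unadjusted p = 0.0316, with 8.70% of all IDs) or Control replicate 3 (unadjusted p = 0.0489, with 7.31%), and Myc without FYT replicate 1 (−1.62, unadjusted p = 0.0395, with 2.88%). The NDEA and Control livers, which share their spread with the tea livers in the common fit, were the more variable ones for both genes.

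Each tea group was also set against Control, a comparison added after the data were seen. The Jun level of the CFT-1 livers lay below all Control livers, as for 2.32% of all IDs, and after scaling 4.12%. Jun differed by −0.85 (95% interval −1.64 to −0.06, limma unadjusted p = 0.0371, adjusted p = 1.00), and 3.25% of all IDs had an unadjusted p as low as 0.05. The unadjusted limma p of Jun was above that limit without Control replicate 1 (0.151) or 2 (0.0908) and without CFT-1 replicate 1 (0.0857), 2 (0.0822) or 3 (0.0502). After scaling it differed by −0.87 (unadjusted p = 0.0148, adjusted p = 0.994, where 4.81% of IDs passed the unadjusted limit). Egr1 stood at −1.30 (−2.97 to 0.37), Fos at −0.87 (−2.69 to 0.95), Myc at −0.13 (−1.58 to 1.31) and Atf3 at −0.13 (−1.26 to 1.00). Without Control replicate 3, Egr1 stood at −2.02 (limma unadjusted p = 0.0220), where 5.44% of all IDs passed the unadjusted limit, and without Control replicate 2 at −0.61. Against Control, FYT livers had Myc at 1.00 (−0.45 to 2.44), Jun at −0.33 (−1.12 to 0.46), Fos at −0.74 (−2.56 to 1.08), Egr1 at 0.20 (−1.48 to 1.87) and Atf3 at −0.09 (−1.22 to 1.03), and 0 of the 5 and 3.80% of all IDs passed the unadjusted limit. Without Control replicate 2, Myc stood at 1.68 (limma unadjusted p = 0.0198, adjusted p = 0.692, where 6.60% of all IDs passed the unadjusted limit) and Egr1 at 0.89. Without Control replicate 1, Myc stood at 0.53 and Jun at −0.08, and without Control replicate 3 Egr1 stood at −0.52 and Jun at −0.65. Fos was lower in every FYT than in every Control liver only after scaling, as for 8.65% of IDs. Scaling moved Jun to −0.57 (limma unadjusted p = 0.0836), Atf3 to −0.26 and Myc to 0.78 in FYT against Control. These comparisons share Control or tea livers with those above, so their values are not independent of them.

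Over all 4 groups at once, limma's F test gave Jun an unadjusted p of 0.0607 and, after scaling, 0.0440, where 6.22% and 6.84% of all IDs passed 0.05. The adjusted p of Jun was 0.804 and 0.716, and 0% of IDs were called. Without NDEA replicate 2 the unadjusted p of the F test by limma was 0.00148 for Jun, 0.0104 for Atf3 and 0.0429 for Myc, where 10.5% of all IDs passed 0.05, each with an adjusted p of 0.473. That of Jun was 0.118 without NDEA replicate 1. Without Control replicate 3 limma's F test gave Jun an unadjusted p of 0.0203 (adjusted p = 0.678), where 6.71% of all IDs passed 0.05. Without Control replicate 2 the same F test gave Myc an unadjusted p of 0.0476 (adjusted p = 0.650), where 7.60% passed. The groups accounted for 48.4% of the variance of Jun on the log2 scale. They accounted for 18.2% of that of Fos, 28.9% of Egr1, 21.6% of Atf3 and 29.9% of Myc. The rest lay between livers of the same group. With 4 group means fitted to 12 libraries, such shares lie above 0 even where groups do not differ. That part was not taken off, and the shares of all IDs were not computed. The shares of the members moved with single libraries, from 2.35% without NDEA replicate 1 to 67.8% without NDEA replicate 2 for Atf3. The share was 31.8% for Fos and 45.7% for Egr1 without NDEA replicate 1, and without NDEA replicate 2 it was 79.3% for Jun, 52.9% for Myc and 40.7% for Fos. Egr1 was at 17.8% without CFT-1 replicate 2.

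The spread between livers of a group was then measured for each gene. The within-group SD of log2(FPKM + 1), with 8 residual degrees of freedom, was 1.21 for Fos, 1.12 for Egr1, 0.96 for Myc, 0.74 for Atf3 and 0.50 for Jun. The median of the 11854 IDs was 0.30. Fos was at the 99.4th percentile of all tested IDs, Egr1 at the 99.1st, Myc at the 98.1st, Atf3 at the 94.7th and Jun at the 83.1st. At the level of each gene, the SD was 3.98 times the value of limma's trend for Fos, 4.08 times for Egr1, 3.51 times for Myc, 2.40 times for Atf3 and 1.98 times for Jun. Counting error made up 0.310% (Egr1) to 1.97% (Atf3) of the within-group variance of log2 read counts scaled to library totals. Without NDEA replicate 1 the SD of Fos was 0.70, the 95.9th percentile, and those of Egr1 (0.89) and Myc (0.97) were at the 98.4th and 98.9th. The 3 NDEA livers held 74.3% of the within-group sum of squares of Fos, 75.9% of that of Atf3, 62.5% of that of Jun, 45.4% of that of Egr1 and 38.8% of that of Myc. Without NDEA replicate 2 the SD of Jun was 0.33, the 59.2nd percentile, and that of Atf3 was 0.47, the 81.6th.

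**Figure D3:**
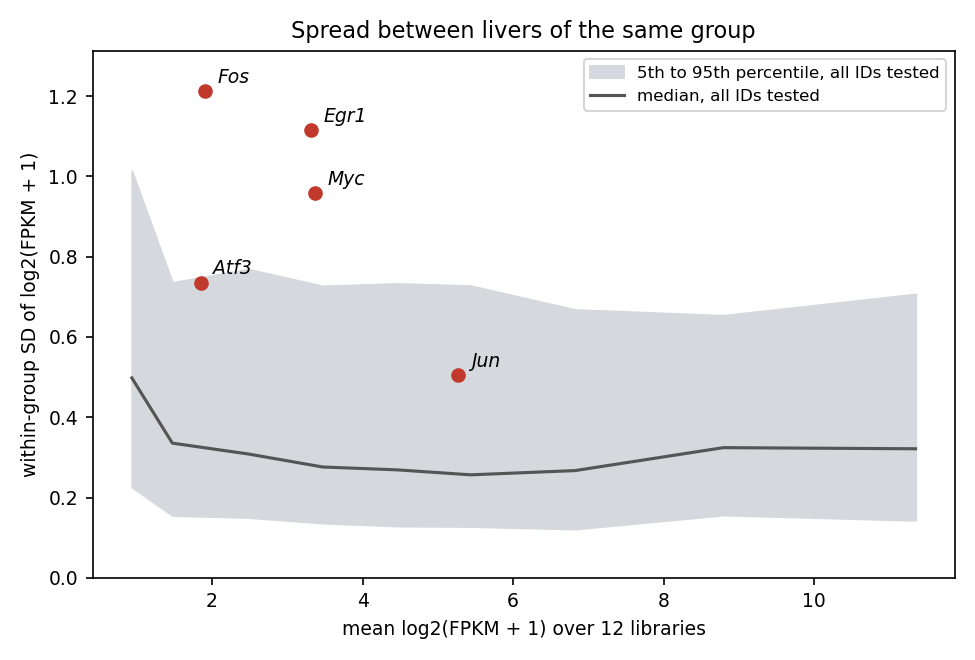
Within-group SD of log2(FPKM + 1) (vertical axis) against the mean level over the 12 libraries (horizontal axis). The grey band holds the 5th to 95th percentile of all 11854 tested IDs in bins of level, the line is their median, and the points are the 5 genes, of which Fos, Egr1 and Myc lie above the band.

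The 5 genes were finally compared liver by liver. Each of the 5 peaked in NDEA replicate 1, as did 49.4% of all IDs. After scaling 2 of them, Fos and Atf3, peaked there, as did 20.0% of all IDs. NDEA replicate 2 was among the lowest 3 libraries for 4 of the 5, and for all 5 after scaling, where it was for 31.9% and 27.7% of all IDs. The highest and one of the lowest livers therefore belonged to the same group. NDEA + CFT-1 replicate 1 was also among the lowest 3 for 3 of the 5, and for all 5 after scaling, against 13.3% and 15.7% of all IDs.

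Correlations of log2(FPKM + 1) were computed for the 10 pairs of members across the 12 livers, with a two-sided permutation test of 100000 resamples. All 10 were positive and 7 had a Benjamini-Hochberg adjusted p under 0.05, each at 0.0274. Pearson's r ran from 0.433 (Fos and Myc) to 0.721 (Fos and Atf3). Spearman's rho ran from 0.280 to 0.769, and 0 of the 10 passed by ranks, the closest being Jun and Egr1 (rho 0.769, raw p = 0.00548, adjusted p = 0.0548, permutation test). After scaling r ran from 0.323 to 0.642, and 0 of the 10 passed (lowest adjusted permutation p = 0.0932). Without NDEA replicate 1 it ran from 0.225 to 0.669 with 0 passing (lowest adjusted permutation p = 0.195). Without the 2 libraries farthest from the median of the first gene of each pair it ran from 0.068 to 0.791 (Jun and Egr1), again with 0 of the 10 passing, although Jun and Egr1 then passed by ranks (rho 0.867, adjusted p = 0.0206, permutation test, n = 10). The passes by Pearson's r were thus lost in each of these settings, while r stayed above 0. Fos and Atf3, the closest pair with all livers, stood at 0.272 without NDEA replicate 1. Jun and Egr1 went from 0.687 to 0.580, and the pairs of Fos with Egr1, Jun with Atf3 and Fos with Jun stood at 0.542, 0.511 and 0.503.

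Myc was correlated with Atf3 (r = 0.692) and Egr1 (r = 0.679), both with an adjusted permutation p of 0.0274. With Jun r was 0.513 (adjusted p = 0.0996, permutation test) and with Fos 0.433 (adjusted p = 0.156, permutation test). Without NDEA replicate 1, r was 0.669 with Atf3 and 0.607 with Egr1. The Myc values fell into the separate high and low ranges given above, and the relation within a range was not tested.

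Within groups, that is on the residuals from the group means, r of the 10 pairs ran from 0.509 to 0.768. By an exact permutation test within groups, Fos and Egr1 passed (r = 0.768, raw p = 0.00463, adjusted over the 10 pairs p = 0.0463), and no other pair did. Myc and Atf3 stood at 0.764 there (adjusted p = 0.0926 by the same exact test). The exact test was run on the deposited values of all 12 libraries. It was not repeated after scaling or without NDEA replicate 1, the highest library for both Fos and Egr1. Across the 12 livers, with no group means taken out, the median correlation of all other tested IDs was 0.273 with Fos and 0.285 with Jun. It was 0.372 with Egr1, 0.300 with Atf3 and 0.303 with Myc. After scaling these medians lay between −0.103 and −0.027. Among the 11853 other IDs ordered by likeness to Fos, Atf3 was number 654 and Egr1 number 912. After scaling they were number 535 and number 587, and after scaling without NDEA replicate 1 they were number 1361 and number 284, with Jun at number 202. Many other IDs were thus closer in pattern to Fos than its fellow members were. As deposited, the member nearest to Myc was Atf3 (number 447) and that nearest to Jun was Egr1 (number 482). Fos was the nearest member to Egr1 (number 1113) and to Atf3 (number 1193). The likest IDs reached r = 0.966 with Atf3, 0.933 with Fos, 0.932 with Myc, 0.910 with Jun and 0.906 with Egr1. They are not named because the table does not pair IDs with symbols.

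**Figure D4:**
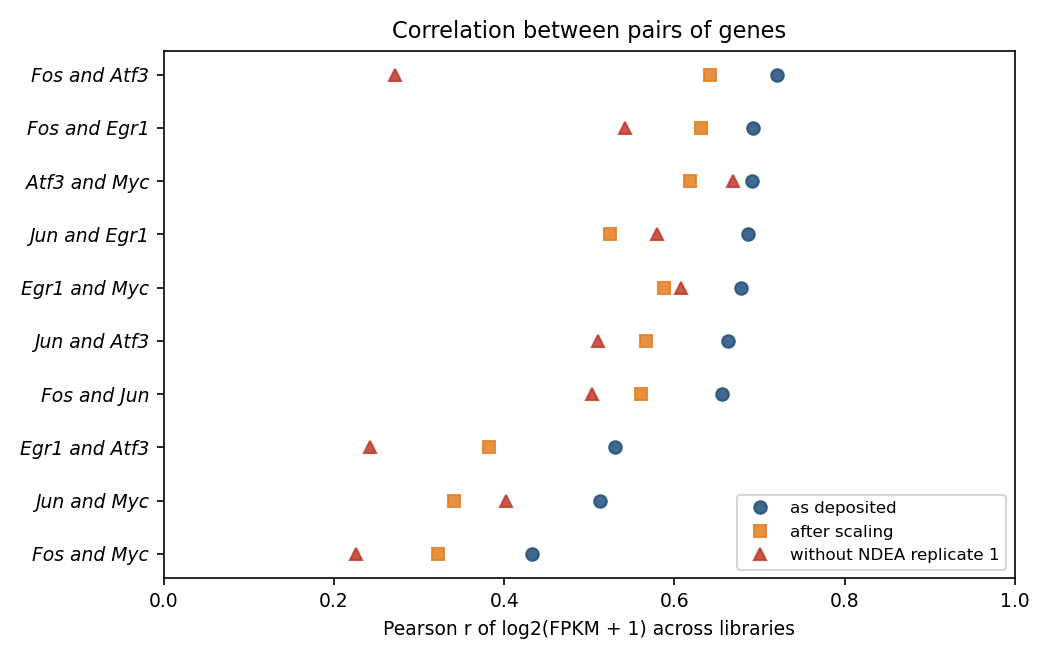
Pearson r of log2(FPKM + 1) across libraries (horizontal axis) for the 10 pairs of the 5 genes, as deposited (12 libraries), after scaling (12 libraries) and without NDEA replicate 1 (11 libraries). Every point is above 0, and the pairs of Fos with Myc (0.225), Egr1 with Atf3 (0.243) and Fos with Atf3 (0.272) are the lowest when that library is left out.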

How the data were processed

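Libraries were sequenced from liver RNA as paired-end Illumina reads. The authors trimmed reads, mapped them, removed PCR duplicates, counted uniquely mapped reads per gene and deposited FPKM values; the submitters' processing notes name Trimmomatic, HISAT2, HTSeq 0.6.1 and the build Rnor_6.0. From the deposited FPKM, log2(FPKM + 1) was compared between groups by limma 3.58.1 under R 4.3.3 (all 4 groups in 1 fit, eBayes with trend, two-sided, Benjamini-Hochberg over 11854 IDs with a mean of at least 1), as deposited and after median-of-ratios scaling. The fit was tested on simulated data. Read counts were recovered as the smallest whole numbers that give all 12 values of an ID, within 0.01, for 100% of tested IDs. Plots used matplotlib 3.10.9. All livers are separate animals of a group, as far as the sources state.

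The 5 genes, the lists and the tests were chosen with earlier results of these data known. All 5 genes were to be named in every library; the IDs nearest in pattern, 8 related gene lists and the liver cell type markers could not be looked up, since IDs are paired with symbols neither in the table nor in the reference used here, so the tissue label was not checked by markers. Alternatives were another pseudocount, no filter, scaling, the groups compared alone, a replicate block, no trend, an unadjusted limit, each library left out and, chosen after seeing the data, limma-voom on recovered counts, the tea groups against Control and correlations without NDEA replicate 1.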

Additional observations from a re-analysis of the deposited data

How the results depend on the processing

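The number of members called stayed at 0 in every comparison under every fit run, limma-voom on recovered counts included. An unadjusted limit of 0.05 in the fit of all 12 libraries as deposited gave 1 member, Jun, for NDEA + CFT-1 against NDEA (12.6% of all IDs) and against Control (3.25%), and 0 in the other pairwise comparisons (1.48% to 8.70%) and over all 4 groups (6.22%). Over the 20 fits of each comparison, the highest number against NDEA was met without NDEA replicate 2, with 4 members for NDEA + CFT-1 (19.1% of all IDs in that fit), 3 for Control (19.3%) and 3 for NDEA + FYT (4.78%). Between the teas it was 3 with only the compared groups fitted (11.9%). For NDEA + CFT-1 against Control it was 2 without Control replicate 3, Jun and Egr1 (5.44%). For NDEA + FYT against Control it was 1, Fos with only the compared groups fitted (10.3%) or Myc without Control replicate 2 (6.60%). Over the 19 fits of all 4 groups it was 3 without NDEA replicate 2 (10.5%). The lowest number was 0 in each of these comparisons. Whether replicate numbers pair the livers is not stated and was not tested. Over 18 pairs of same-numbered libraries of different groups the correlation of deviations ran from −0.467 to 0.282 and exceeded 0.1 in 7. Between libraries of different numbers it ran from −0.248 to 0.388. Same-numbered pairs of Control and NDEA + CFT-1 stood at 0.217, 0.272 and 0.282. Those of NDEA and NDEA + CFT-1 stood at −0.334, −0.467 and −0.047. With the replicate block 0 members and 0 IDs were called in every comparison. Over all tested IDs, 1 to 2 were called by limma without the filter or without Control replicate 2 or NDEA + FYT replicate 3, in some comparisons, and none was a member.

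Of 570 alternative values of the log2 fold changes, 34 had the opposite sign and none of these was called. After scaling, Fos (0.028) and Jun (0.076) turned in Control against NDEA, Fos (0.014) and Atf3 (0.13) in NDEA + CFT-1 against NDEA + FYT and Egr1 (−0.018) in NDEA + FYT against Control. With voom, Fos turned in Control against NDEA (0.16). With single libraries left out, values of both signs were met as follows. Control against NDEA ran from −1.04 to 0.95 for Fos, −0.67 to 0.11 for Jun and −0.52 to 1.03 for Egr1. NDEA + CFT-1 against NDEA ran from −1.91 to 0.083 for Fos. NDEA + FYT against NDEA ran from −1.78 to 0.21 for Fos, −0.18 to 1.22 for Egr1 and −0.59 to 0.59 for Myc. NDEA + CFT-1 against NDEA + FYT ran from −0.67 to 0.37 for Fos and −0.30 to 0.15 for Atf3. Against Control the CFT-1 group ran from −0.39 to 0.073 for Atf3 and −0.60 to 0.55 for Myc, and the FYT group from −0.52 to 0.89 for Egr1 and −0.27 to 0.15 for Atf3.

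The number of correlated pairs, 7 as deposited, was 0 after scaling and 0 without the 2 farthest libraries. On residuals, taken only of the deposited values of all 12 libraries, it was 1. With single libraries left out it was 0 to 8, with 0 without NDEA replicate 1, NDEA replicate 2 or NDEA + CFT-1 replicate 1. With scaling and without NDEA replicate 1 together it was 0. The within-group SD ran from 0.70 to 1.30 for Fos, from 0.33 to 0.54 for Jun (0.33 without NDEA replicate 2) and from 0.47 to 0.78 for Atf3 (0.47 without NDEA replicate 2) with single libraries left out. The cause of these shifts was not tested. Counting error was at most 1.97% of the within-group variance of any member (Atf3).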
